A study of Homo sapiens with 4 samples.

Results

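The potassium channel genes described here are the genes whose symbol begins with KCN, which covers pore-forming and auxiliary subunits of potassium channels. A probe was taken as a member when its RefSeq accession mapped to such a symbol, which gave 121 of the 41000 probes on the array for 90 genes, and 24 of these genes had over 1 probe. The set was picked because KCNMA1 was far lower in both lapatinib-resistant clones than in their parental cells, so the same contrast chose the genes and is described below without any test. The samples were parental SkBr3 and BT474 cells, both HER2-positive breast cancer lines labelled as vehicle treated, and 1 lapatinib-resistant clone of each line. The clones, named SkBr3/Lap and BT474/Lap here, were raised in stepwise increased lapatinib, which blocks the kinase activity of EGFR and HER2, to a maximum of 1 μM. Each resistant line is 1 clone and each of the 4 groups is 1 array, so a difference between clone and parent has no check by replicates and differences between clones of a line cannot be seen. The sample labels and the study's text give the clone numbers 3 and 6 the opposite way round, and no clone number is used here.

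Potassium channels let potassium ions leave or enter the cell along their gradient and so set the resting membrane voltage, cell volume and the driving force for calcium entry. Voltage-gated channels open on depolarization, calcium-activated channels such as the large-conductance BK channel open when intracellular calcium rises, inward rectifiers pass current best at negative voltages, and tandem-pore (K2P) channels leak at rest. Pore subunits assemble into the channel itself, while auxiliary subunits change its gating or its traffic to the membrane. In breast epithelium and in breast cancer lines these channels have been studied for their part in proliferation, volume regulation and migration.

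Among the KCN genes past the signal filter given below, KCNMA1 and KCNS3 were lower in both clones. KCNMA1 is the pore subunit of the BK channel and KCNS3 a silent voltage-gated subunit. KCNMB4, a beta subunit of the BK channel, and the pore subunits KCND2, KCNH2 and KCNK12 were higher in both. The 250 bases upstream of the annotated start are shown for the 4 of these genes that have an entry in the promoter table, because they are the regions next to the genes that moved the same way in both lines. They come from RefSeq on GRCh38.p14 and read 5′ to 3′ on the strand of the gene. Where the table holds more than 1 start, the first listed is printed. Capitals mark the GC box, GGGCGG, on either strand.
KCNMA1, chr10:77637809-77638058, minus strand: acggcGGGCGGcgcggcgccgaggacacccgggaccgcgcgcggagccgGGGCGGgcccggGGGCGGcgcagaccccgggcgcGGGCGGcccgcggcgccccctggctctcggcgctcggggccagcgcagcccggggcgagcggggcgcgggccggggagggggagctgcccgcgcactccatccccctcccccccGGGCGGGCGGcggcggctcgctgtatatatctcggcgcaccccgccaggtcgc
KCNS3, chr2:17877597-17877846, plus strand: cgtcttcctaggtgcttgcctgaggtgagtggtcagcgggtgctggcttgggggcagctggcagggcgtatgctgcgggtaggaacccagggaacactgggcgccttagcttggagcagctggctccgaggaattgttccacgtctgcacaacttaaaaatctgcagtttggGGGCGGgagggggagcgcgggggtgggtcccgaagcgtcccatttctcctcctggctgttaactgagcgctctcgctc
KCND2, chr7:120272925-120273174, plus strand: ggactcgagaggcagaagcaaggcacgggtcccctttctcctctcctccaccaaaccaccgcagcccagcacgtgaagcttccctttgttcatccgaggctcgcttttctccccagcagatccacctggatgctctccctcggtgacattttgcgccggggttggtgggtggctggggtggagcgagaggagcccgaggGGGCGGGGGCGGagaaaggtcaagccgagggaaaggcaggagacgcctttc
KCNH2, chr7:150978322-150978571, minus strand: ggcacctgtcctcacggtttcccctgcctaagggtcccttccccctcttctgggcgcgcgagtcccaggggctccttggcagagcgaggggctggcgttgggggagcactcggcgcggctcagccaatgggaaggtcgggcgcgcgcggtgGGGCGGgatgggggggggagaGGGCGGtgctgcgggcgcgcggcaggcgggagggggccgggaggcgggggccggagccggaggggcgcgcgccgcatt

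KCNMA1 and KCNS3 have 2 starts in the table each, KCND2 has 1 and KCNH2 has 5. Of the 8 KCN genes changed at least 2-fold in both clones in any direction, 5 had an entry. Over the 35116 windows of the same length in the table, the GC box was present in 42.6% and the median GC content was 58% with a median of 11 CpG dinucleotides. The KCNMA1 window was 85.6% GC with 46 CpG and 6 GC boxes, the last 2 of which overlap. KCNS3 had 1 GC box, 14 CpG and 62.4% GC, KCND2 had 2 boxes, 15 CpG and 63.6% GC, and KCNH2 had 2 boxes, 29 CpG and 77.2% GC. NF-kB, the factor the study concerned, was searched as its 10-base consensus on both strands, which 9.96% of all windows held and which had 0 matches in the 4 printed windows. A looser form that fixes only 3 G and 2 C around 5 free bases was present in 54.4% of all windows, 5 times in KCNMA1, where 2 of the matches overlap a GC box, and 2 times in KCNS3. The consensus was used after the looser form had been searched. AP-1 letters, TGANTCA, were in 6.57% of all windows and in 0 of the 4, and the E-box CACGTG was in 6.34% and 1 time in KCND2. A match is a run of letters and not a shown binding site.

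Total RNA was hybridized to Agilent whole human genome arrays in 1 color, and the processed signal of a spot is its brightness after background subtraction. Its 75th percentile over all probes was 1115 and 1158 for parental SkBr3 and BT474, and 2074 and 1681 for SkBr3/Lap and BT474/Lap. Where 4 signals of a probe are listed, the order is SkBr3, SkBr3/Lap, BT474 and BT474/Lap. Signals are printed as deposited, and every fold change was computed after dividing by that percentile, so a probe with the same signal on both SkBr3 arrays has a negative log2 fold change. The image software marked 66.6% to 74.0% of the probes as well above background, 0 spots were saturated, and the lowest signal so marked was 13.3 to 16.01. Spots of 264 probes printed 10 times differed with a median SD of 0.075 to 0.081 on the log2 scale, which gives an SD of 0.11 for a difference of 2 arrays and leaves out the spread between cultures. The other 3 arrays shared 1 slide while SkBr3/Lap was hybridized on another, so in SkBr3 the slide and the resistance cannot be told apart. The BT474 pair lay within 1 slide. For its protein blots the study kept the resistant clones of both lines in 1 μM lapatinib, and the parental cells here were labelled as vehicle treated. Drug exposure and acquired resistance thus cannot be told apart in either line. Of 7 luminal breast epithelial markers, 6 were well above background on each SkBr3 array and 7 on each BT474 array, and the exception in SkBr3 was CDH1, the epithelial cadherin.

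Of the 90 KCN genes, 32 were well above background on no array and 58 on at least 1. SkBr3 cells had 35 detected genes and SkBr3/Lap cells 43, while BT474 cells had 40 and BT474/Lap cells 50. More KCN genes were thus detected in each clone than in its parent, and the share of all probes well above background moved the same way. In the SkBr3 pair, 15 KCN genes (16.7%) were detected in the clone alone and 7 (7.78%) in the parent alone, against 7.83% and 1.46% of the 16422 named genes on the array. The BT474 pair had 11 KCN genes (12.2%) in the clone alone and 1 (1.11%) in the parent alone, against 5.5% and 0.926%. Of the 39 voltage-gated pore subunits, 16 were detected on no array, and the number detected was 14 and 16 in SkBr3 and its clone and 16 and 21 in BT474 and its clone. In the same order it was 8, 10, 9 and 10 for the 14 tandem-pore genes and 3, 5, 4 and 5 for the 14 inward rectifiers.

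**Figure D1:**
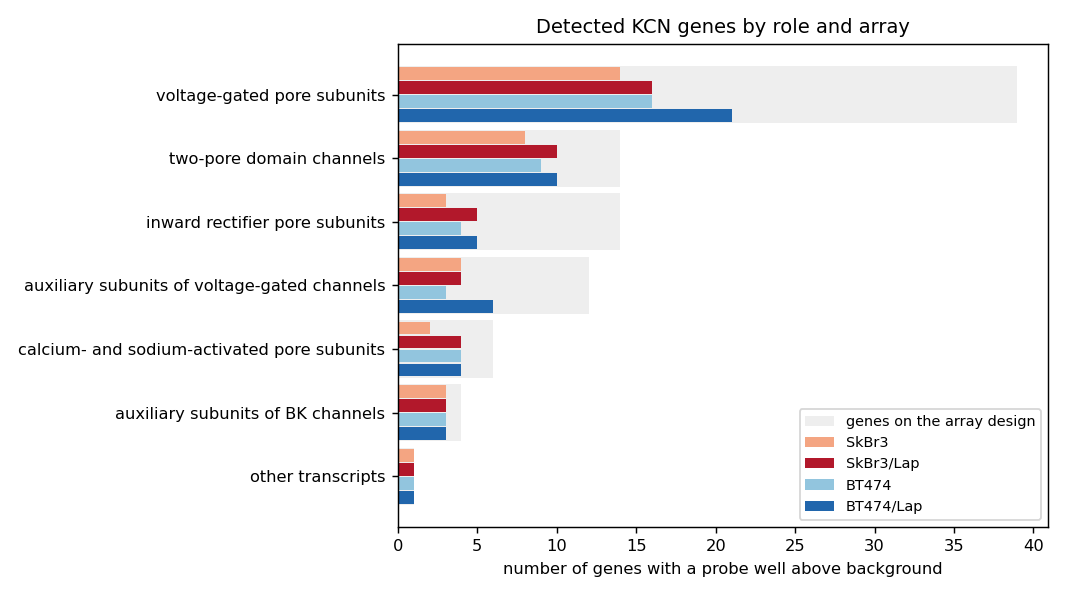
Bars give the number of KCN genes, by role on the vertical axis, with at least 1 probe well above background on each of the 4 arrays, and the gray bar gives the genes of that role on the array design. Tandem-pore genes are drawn as two-pore domain channels, and BT474/Lap has the longest bar for the voltage-gated pore subunits, 21 of 39.

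A signal of at least 100 on at least 1 array was required for a fold change to be given, and 31 KCN genes passed while 59 did not. Of the 59, 27 were well above background on some array. A gene was represented by its brightest probe that passed. Where only 1 array of a pair was well above background the fold change is a limit, written "at least", and where neither was, or the limit was under 1-fold, none is given. Of the KCN genes that passed, 20 of 31 (64.5%) were well above background on all 4 arrays, against 90% of the 12159 named genes that passed. A gene can pass through the 1 array where it is bright, so counts over the 31 genes are descriptive.

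Compared with parental SkBr3 cells, and at a threshold of 2-fold, SkBr3/Lap cells had 7 KCN genes higher and 8 lower out of 26 with a value. The same rule applied to all named genes called 13.9% higher and 13.4% lower. For BT474/Lap cells the numbers were 13 higher and 2 lower out of 30 with a value, against 8.84% and 5.29% of all named genes. Both clones had a value for 25 KCN genes, of which 4 were higher in both, 2 lower in both and 2 changed in opposite directions. Over all named genes these classes held 2.61%, 1.28% and 2.72%. Since this contrast chose the set, nothing further is read from these shares. Among the 20 KCN genes well above background on all 4 arrays, 4 were higher and 5 lower in SkBr3/Lap cells and 7 higher and 2 lower in BT474/Lap cells, and the shares of all named genes that met this condition were 10.6%, 12.7%, 6.33% and 4.55%. Of these 20 genes, 2 were higher in both clones, 2 lower in both and 1 opposite, against 1.76%, 1.1% and 2.21% of the named genes. The median log2 fold change of the KCN genes was 0.03 for SkBr3/Lap and 0.78 for BT474/Lap, and that of all named genes was -0.05 and -0.08.

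**Figure D2:**
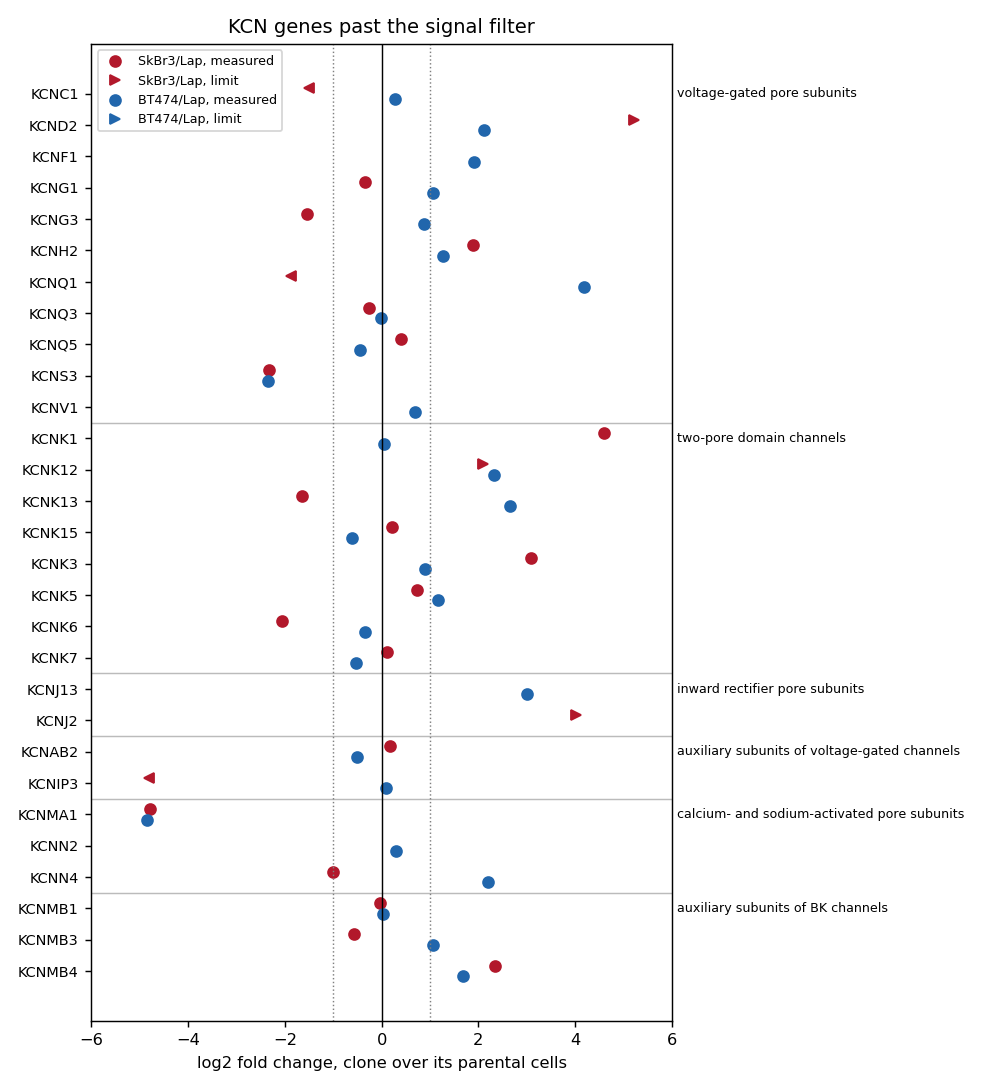
Each row is 1 of 29 of the KCN genes that passed the signal filter, grouped by role, and the horizontal axis is the log2 fold change of a clone over its parental cells, red for SkBr3/Lap and blue for BT474/Lap. Circles are measured values, triangles are limits that point the way the true value lies, dotted lines mark 2-fold, and KCNMA1 stands at -4.78 and -4.85.

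The BK channel combines a pore subunit, KCNMA1, with beta subunits that tune its sensitivity to calcium and voltage. The KCNMA1 probe A_24_P156490 gave signals of 2112 in SkBr3 and 143 in SkBr3/Lap cells, and of 428 in BT474 and 21.6 in BT474/Lap cells. Both clones were below their parents, and the BT474/Lap signal was near the lowest that counts as well above background. In RNA of a whole culture, fewer cells that express a gene and less RNA per cell cannot be told apart. After scaling, KCNMA1 was 27.5-fold lower in SkBr3/Lap cells (log2 fold change -4.78) and 28.8-fold lower in BT474/Lap cells (-4.85).

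The array holds 4 other KCNMA1 probes, and they differed in size from the brightest one. Probe A_32_P181222 gave 333, 111, 62.7 and 4.13, or -2.49 on the log2 scale for SkBr3/Lap and a limit of -2.63 for BT474/Lap, where it was not well above background. Probe A_24_P61150 gave 62.6, 57.8, 61.5 and 65.8, with log2 fold changes of -1.01 and -0.44. Its signals were nearly level across the arrays, so these negative values come mostly from the scaling. Probe A_32_P192692 was well above background only in SkBr3, at 22.8, with a limit of -1.68 in SkBr3/Lap, and A_23_P60727 was so on no array. Every KCNMA1 log2 fold change that could be given was therefore negative, with measured values between -4.78 and -1.01 for SkBr3/Lap and between -4.85 and -0.44 for BT474/Lap. Which transcripts each probe detects was not tested.

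Of the 4 beta subunit genes, 3 were detected, and KCNMB2 was well above background on no array. KCNMB4, the beta subunit known best from neurons, gave 955, 9008, 110 and 508. It was higher in both clones, by 5.07-fold in that of SkBr3 and 3.19-fold in that of BT474, the opposite direction to the pore subunit. KCNMB3 gave 71.9, 89.6, 112 and 338, which was 2.08-fold higher in BT474/Lap and a log2 fold change of -0.58 in SkBr3/Lap. The KCNMB3 value in BT474/Lap dropped under 2-fold with median scaling, quantile normalization, normexp correction or 16 added to the signal.

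KCNMB1, the beta subunit of smooth muscle BK channels, was read differently by its 2 probes. The brighter, A_24_P206121, gave 305, 553, 302 and 449, with log2 fold changes of -0.04 and 0.04, both of which change sign with median scaling or quantile normalization. The other, A_23_P19142, gave 462 in SkBr3 and 57.4 in its clone, -3.91 on the log2 scale, and was not well above background in either BT474 sample. The gene's value in the SkBr3 pair thus depends on the probe. Of the gamma subunits of the BK channel only LRRC55 had a named probe, and it was well above background on no array.

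**Figure D3:**
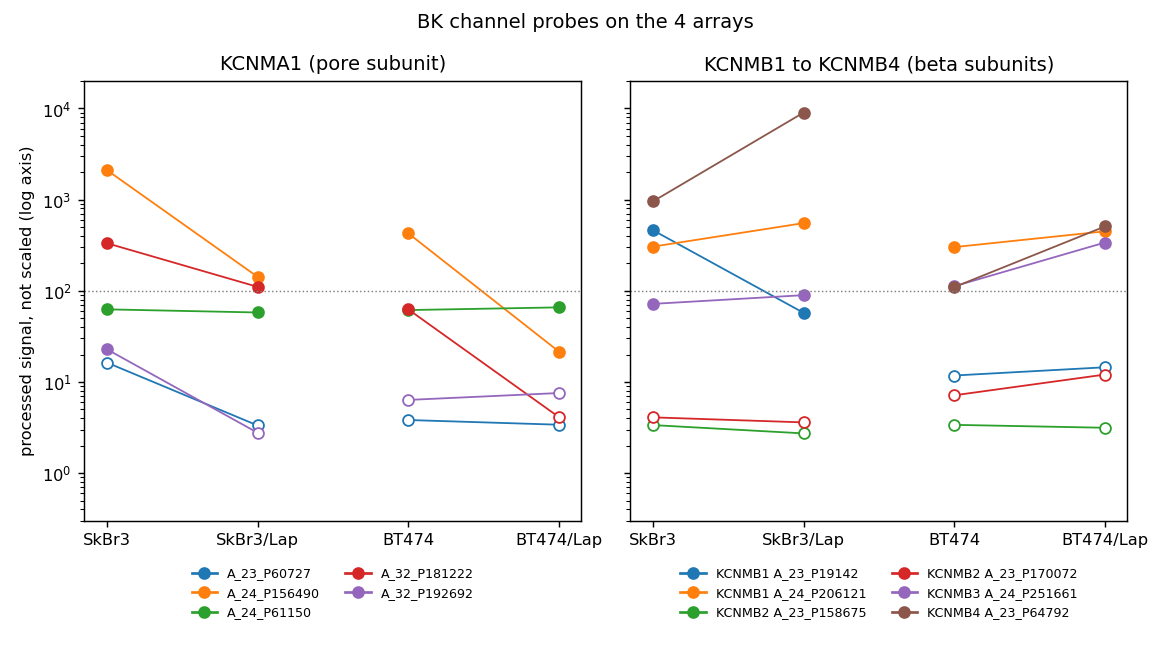
Processed signal (log axis, not scaled between arrays) of the 5 KCNMA1 probes and the 6 probes of KCNMB1 to KCNMB4 on the 4 arrays. Filled points are well above background, open points are not, the dotted line is the signal filter of 100, and each line joins a clone to its parent for 1 probe. Levels of different probes are not comparable. KCNMA1 probe A_24_P156490 goes from 2112 to 143 and from 428 to 21.6, and KCNMB4 goes from 955 to 9008 and from 110 to 508.

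The other calcium-activated pore subunits behaved differently. KCNN4, the intermediate-conductance channel of epithelial and blood cells, gave 20194, 18823, 975 and 6461. It was 4.57-fold higher in BT474/Lap, while in SkBr3/Lap its log2 fold change of -0.997 (1.996-fold lower) fell just short of the 2-fold threshold. With the percentile over probes well above background, quantile normalization or normexp correction, KCNN4 was called lower in SkBr3/Lap. KCNN2, a small-conductance channel, was not well above background in SkBr3 and had a log2 fold change of 0.31 in BT474/Lap.

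Voltage-gated pore subunits were the largest class, with 13 of 39 genes past the filter. In SkBr3/Lap 2 were higher and 4 lower of 10 with a value, and in BT474/Lap 6 were higher and 1 lower of 13. Over all named genes the shares were 13.9% and 13.4% in SkBr3/Lap, and 8.84% and 5.29% in BT474/Lap. KCNS3, which forms no channel alone but alters the pores it joins, gave 723, 269, 880 and 250. Both parents lay above both clones, and the gene had log2 fold changes of -2.32 in the SkBr3 clone and -2.35, or 5.10-fold lower, in the BT474 clone. KCNG3, another silent subunit, gave 208, 134, 29.3 and 77.6, which was 2.90-fold lower in SkBr3/Lap and a log2 fold change of 0.87 in BT474/Lap.

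KCND2 encodes a pore of A-type channels, which inactivate quickly after opening. Its probe A_23_P259251 gave 3.34 in SkBr3, not well above background, and 1111 in its clone, with 27.5 in BT474 against 173 in BT474/Lap. The SkBr3 clone was at least 37.3-fold higher than its parent, and the BT474 clone 4.34-fold. The second KCND2 probe gave limits of 3.72 and 1.30 on the log2 scale, in the same direction. Of the partners of these channels, KCNIP3 alone has a fold change in the SkBr3 pair. KCNIP3, a calcium-binding partner that also acts as a transcriptional repressor, gave 202, 13.1, 333 and 516 and was at least 28.2-fold lower in SkBr3/Lap, with a log2 fold change of 0.10 in BT474/Lap. KCNIP1, of the same family, was well above background in BT474/Lap alone, at 58.3, at least 2.51-fold higher than in BT474 but under the signal filter. DPP10 was also detected in BT474/Lap alone, at 17.8, and KCNIP2, KCNIP4 and DPP6 were well above background on no array.

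KCNH2, the hERG channel of cardiac repolarization, gave 57.4, 397, 36.0 and 126. SkBr3/Lap was 3.72-fold and BT474/Lap 2.41-fold above the parent, and its second probe gave a log2 fold change of 0.59 in SkBr3/Lap and a limit of 1.57 in BT474/Lap. The first probe thus passed 2-fold in both clones and the second in BT474/Lap only.

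KCNQ1, a pore of heart and of secretory epithelia, was changed in opposite directions. The signals were 26.3 in SkBr3 and 2.89 in SkBr3/Lap cells, and 239 in BT474 and 6256 in BT474/Lap cells. The SkBr3/Lap signal was not well above background, so the gene was at least 3.68-fold lower there, from a dim parental signal, and it was 18.1-fold higher in BT474/Lap.

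KCNF1, a silent subunit, gave 118 in BT474 and 644 in BT474/Lap, 3.76-fold higher, and was not well above background in either SkBr3 sample. KCNC1, a pore of fast-spiking neurons, gave 20.3, 11.3, 135 and 236 and was at least 2.84-fold lower in SkBr3/Lap, with a log2 fold change of 0.27 in BT474/Lap. KCNG1, a silent subunit named here although the naming rule did not select it, gave 15406, 22527, 9585 and 29024 and was 2.09-fold higher in BT474/Lap, which fell under 2-fold with median scaling. KCNQ3 and KCNQ5 did not reach 2-fold in either clone. KCNV1 had a log2 fold change of 0.70 in BT474/Lap. In SkBr3 it gave 3.84, not well above background, against 15.8 in SkBr3/Lap, and no fold change is given for that pair.

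**Figure D4:**
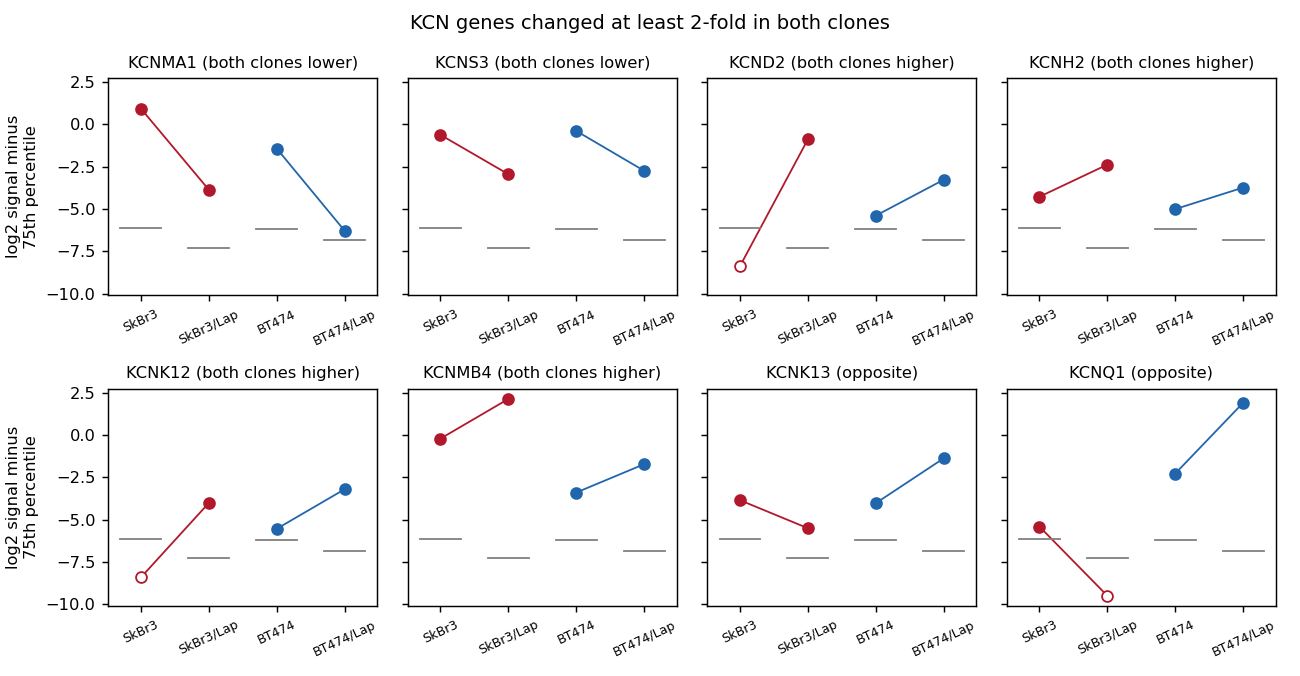
Scaled level (log2 signal minus the 75th percentile of the array) of the 8 KCN genes changed at least 2-fold in both clones. Filled points are well above background, open points are not, gray bars mark the lowest signal well above background on each array, and lines join parent and clone. KCNMA1 and KCNS3 go down in both lines, KCND2, KCNH2, KCNK12 and KCNMB4 go up in both, and KCNK13 and KCNQ1 go down in SkBr3/Lap and up in BT474/Lap.

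Of the 14 tandem-pore channel genes, 8 passed the filter. All 8 had a value in both clones. In SkBr3/Lap 3 were higher and 2 lower, against 13.9% and 13.4% of all named genes. In BT474/Lap 3 were higher and 0 lower, against 8.84% and 5.29%. KCNK1, a weak leak channel of many epithelia, gave 284 in SkBr3 against 12886 in SkBr3/Lap, and 5284 in BT474 against 7930 in BT474/Lap. The SkBr3 parent stood apart from the other 3 samples, and KCNK1 was 24.4-fold higher in SkBr3/Lap with a log2 fold change of 0.05 in BT474/Lap.

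KCNK12 and KCNK13 encode closely related halothane-inhibited channels, of which only KCNK13 changed in opposite directions in the clones. KCNK12 gave 3.28, 128, 24.9 and 182, with only the SkBr3 signal not well above background. The clones were at least 4.30-fold (SkBr3/Lap) and 5.04-fold (BT474/Lap) higher. KCNK13 gave 77.4, 45.7, 70.8 and 645, which was 3.15-fold lower in the SkBr3 clone and 6.27-fold higher in the BT474 clone. Both clones of KCNK12 were thus above their parents, while KCNK13 was so in BT474/Lap only.

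KCNK3, an acid-sensitive leak channel, gave 45.0, 708, 55.6 and 151 with its brightest probe, 8.46-fold higher in SkBr3/Lap and a log2 fold change of 0.90 in BT474/Lap. Its other probes gave a log2 fold change of -0.01 and a limit of 1.64 in SkBr3/Lap. KCNK6 gave 2369, 1056, 1653 and 1889, which was 4.17-fold lower in SkBr3/Lap and a log2 fold change of -0.35 in BT474/Lap. A second KCNK6 probe gave a limit of -1.83 in SkBr3/Lap and another, with signals of 46.9 and 126, gave 0.53, so the probes of KCNK6 did not share a direction there. KCNK5, named although the rule did not select it, gave 3195, 9932, 3864 and 12509 and was 2.23-fold higher in BT474/Lap, falling under 2-fold with median scaling.

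Some of these calls on dim signals dropped under 2-fold with normexp correction and quantile normalization. They included KCNC1, KCNG3, KCNK13 and KCNQ1 in SkBr3/Lap and KCND2 and KCNH2 in BT474/Lap, and KCNC1 and KCNQ1 also dropped with 16 added to the signal.

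Inward rectifiers were mostly dim, with 2 of 14 genes past the filter. KCNJ2, which holds the resting voltage of muscle and nerve cells, gave 483 in SkBr3/Lap and 3.85, 3.69 and 3.61 in SkBr3, BT474 and BT474/Lap. It was well above background in SkBr3/Lap only, at least 16.2-fold higher than in SkBr3. KCNJ13, a channel of transporting epithelia, gave 4.17, 17.6, 46.7 and 544 and was 8.03-fold higher in BT474/Lap. In SkBr3/Lap it was barely above background and no fold change is given.

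The ATP-sensitive channel is built from KCNJ11 or KCNJ8 with a sulfonylurea receptor, and neither pore gene passed the filter. KCNJ11 gave 48.5, 12.5, 77.8 and 55.0. KCNJ8 gave 45.7 in SkBr3 and 54.6 in BT474/Lap and was not well above background in the other samples. Without the filter KCNJ11 was at least 6.78-fold lower in SkBr3/Lap and 2.05-fold lower in BT474/Lap. KCNJ8 was at least 6.39-fold lower in SkBr3/Lap and at least 2.36-fold higher in BT474/Lap. Neither gene is in the counts of called genes. The receptor ABCC8 gave 63.8, 29.4, 590 and 907, which is -2.01 for SkBr3/Lap and 0.08 for BT474/Lap on the log2 scale. The ABCC8 difference in the SkBr3 pair thus lay between 2 dim signals.

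Probes of 1 gene often disagreed. In SkBr3/Lap, 7 KCN genes had at least 2 probes that were measured, the median range of their log2 fold changes was 2.60, and in 6 genes it was over 2-fold. In BT474/Lap 4 genes had such probes, the median range was 0.70, and in 2 genes it was over 2-fold. Every KCN probe was printed once on the array, so the spread within a KCN probe is not known from these arrays.

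Other genes of potassium and calcium handling were taken from fixed lists. Of 16 genes of potassium pumps and cotransporters, 9 passed the filter. In SkBr3/Lap 2 were higher and 1 lower of 9 with a value, against 13.9% and 13.4% of all named genes. In BT474/Lap 0 were higher and 2 lower of 8, against 8.84% and 5.29%. SLC12A7, a potassium-chloride cotransporter, was lower in both clones, at -1.84 and -1.48 on the log2 scale. SLC12A4, another potassium-chloride cotransporter, was 7.24-fold higher in SkBr3/Lap with a log2 fold change of -0.11 in BT474/Lap, and SLC12A2, the sodium-potassium-chloride cotransporter, was 3.22-fold lower in BT474/Lap.

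Of 4 hyperpolarization-activated channel genes 3 passed, and only HCN3 changed 2-fold, at -1.73 for SkBr3/Lap and 0.75 for BT474/Lap on the log2 scale. Of 21 genes of calcium entry and release, 16 passed. In SkBr3/Lap 0 were higher and 3 lower of 14 with a value, against 13.9% and 13.4% of all named genes. In BT474/Lap 2 were higher and 1 lower of 16, against 8.84% and 5.29%. CACNA1D, a pore of L-type calcium channels, gave 400, 9.27, 101 and 389 and was at least 55.9-fold lower in the SkBr3 clone and 2.67-fold higher in the BT474 clone. ITPR1, a calcium release channel of the endoplasmic reticulum, and ORAI3, a store-operated channel, were lower in SkBr3/Lap, at -1.44 and -1.25. In BT474/Lap they were at 0.89 and 0.19. CACNA1H, a T-type channel, was lower in BT474/Lap at -2.01, and CACNA1E was higher there at 1.03. In SkBr3/Lap CACNA1H was at -0.37 and CACNA1E at -0.99.

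For each of the 8 KCN genes changed in both clones, the nearest named gene past the signal filter on either side was set beside it. Genes in between that had no named probe or did not pass were skipped, so a neighbor need not be the adjacent gene. Of these 16 neighbors, 2 were called in the direction of the KCN gene and 3 in the opposite direction in SkBr3/Lap. In BT474/Lap, where 15 had a value, the counts were 3 and 0. Of all named genes, 13.9% were called higher and 13.4% lower in SkBr3/Lap, and 8.84% and 5.29% in BT474/Lap. The 2 in SkBr3/Lap were TSPAN12 beside KCND2, with a log2 fold change of 5.79, and PTPRR beside KCNMB4, with 2.21. The 3 opposite ones there were ZNF503 beside KCNMA1, NOS3 beside KCNH2, at -1.77, and CDKN1C beside KCNQ1, at 1.25. In BT474/Lap the 3 were ZNF503, NOS3 at 1.38 and CDKN1C at 1.74. The neighbors of KCNMA1 were ZNF503, with log2 fold changes of 2.75 and -1.86, and DLG5, with -0.07 and 0.58. In neither clone were both neighbors lower along with KCNMA1.

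Markers of other cell types were read on the same arrays, since several KCN genes are known from nerve, muscle or blood. Fibroblast markers were well above background for 0 of 4 genes in SkBr3, BT474 and BT474/Lap and for 1 in SkBr3/Lap, COL3A1 at 347, and their summed signal was 366 there and 16.6 to 18.9 elsewhere. Leukocyte markers were so for 4, 4, 3 and 4 of 5 genes on the 4 arrays in the order given above, with summed signals of 182 to 1141, and PTPRC, which defines leukocytes, was well above background on no array. Endothelial markers were so for 2, 3, 1 and 2 of 4 genes, with summed signals of 192, 1399, 910 and 665. Neural and muscle markers were each so for 2, 3, 1 and 2 genes, of 4 and 5, with summed signals of 72.9 to 227 and 55.6 to 868. The part of other cell types in the KCN values was not tested. The summed signal of the luminal markers was 844885 to 1002890. Among them ERBB2, the gene of HER2, was 3.74-fold lower in SkBr3/Lap, with a log2 fold change of -0.65 in BT474/Lap. None of the other luminal markers with a value reached 2-fold.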

How the data were processed

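Total RNA of 4 samples, 1 per group, was measured on Agilent 4-array slides in 1 color. For each spot the authors deposited intensities made by Feature Extraction 10.1.1.1 (file headers), namely a processed signal, with background removed and trends over the slide corrected, and median pixel values, plus flags. The methods name an earlier version, Cy3 or Cy5 and LOWESS. The authors also deposited a table of log2 values, with the centering steps not given in the sources used here. Its column medians were 0.12, -0.20, 0.11 and -0.05, and its clone-to-parent differences lay within 0.00073 (median) and 0.62 (largest) of those from processed signals.

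Spots of a probe were averaged on the log2 scale, and the 75th percentile of the array's 41000 non-control probes was subtracted. Probes were named by RefSeq accession through the GRCh38.p14 annotation, which named 23680. Its coordinates were used for promoters and gene order only. A probe was well above background when at least 50% of its spots were marked so, and was kept at a signal of at least 100 on at least 1 array. A gene was its kept probe with the highest mean level. For a limit, the dim side was set to the higher of its own signal and the lowest signal well above background on that array. Called means at least 2-fold, measured or as a limit. Genes named are those of the BK channel, those called in both clones, those lower in a clone and the 8 highest per clone. A few items within this rule are left unreported. The members and all lists were chosen with earlier results of these data known. With 1 array per group no test was made, and the number of arrays limits the precision.

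Alternatives were other scalings (percentile over probes well above background, median, quantile), normexp (offset 50) on median pixel intensities with quantile normalization, the deposited table, 16 added to the signal, no filter, detection on all 4 arrays, no limits, outlier spots left out, 3-fold, and the mean over probes. Scripts were tested on simulated data. Python 3.11.15, numpy 2.4.6, pandas 2.3.3, matplotlib 3.10.9, R 4.3.3 and limma 3.58.1 were used.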

Additional observations from a re-analysis of the deposited data

Results flagged for a closer look

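KCNK13 and KCNQ1 stood out because they moved at least 2-fold in opposite directions in the 2 cell lines. The log2 fold change of KCNK13 was 4.30 higher in BT474/Lap than in SkBr3/Lap (2.65 against -1.65), and that of KCNQ1 was at least 6.05 higher (4.18 against a limit of -1.88, since KCNQ1 was not well above background in SkBr3/Lap). With 1 array per group the difference was not tested, and in SkBr3 the slide and the clone cannot be told apart.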

How the results depend on the processing

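No paired analysis was possible because the groups share only replicate number 1, so no replicate block could be fitted. Every fold change already sets a clone against its own line, and no model with the line as a block was fitted, since this contrast chose the genes. KCNMA1 stayed lower in both clones under every alternative, and none of the 28 calls on genes selected by the naming rule changed sign. Values near 0 did, namely the median of the KCN genes in SkBr3/Lap, KCNMB1 in both clones (to 0.12 and -0.17 with median scaling), and KCNK1 and KCNIP3 in BT474/Lap (to -0.16 and -0.11 with median scaling). Of these 28 calls, 20 stayed past 2-fold under every alternative that gave a value and 8 did not, each of them under normexp. The BT474/Lap calls of KCNG1 and KCNK5, which the rule did not select, lie outside the 28. Both fell under 2-fold with median scaling. Values below are given for SkBr3/Lap and then BT474/Lap. The KCNMA1 log2 fold change was -4.63 and -5.06 with median scaling, -4.55 and -5.15 with quantile normalization, -4.04 and -3.04 with normexp, -4.58 and -4.00 with 16 added, and -3.63 and -3.74 as the mean over probes. With the percentile over probes well above background it was -4.74 in BT474/Lap. With single other probes, chosen after seeing the data, it was -1.01 and -0.44 (A_24_P61150), -2.49 and -2.63 (A_32_P181222), and -1.68 in SkBr3/Lap (A_32_P192692). The median log2 fold change of the KCN genes was 0.19 and 0.58 with median scaling, which moved the median of all named genes to 0.11 and -0.29, and -0.12 and 0.27 without a filter. In SkBr3/Lap it was -0.075 as the mean over probes, and in BT474/Lap it was 0.89 with the percentile over probes well above background, 0.57 with quantile normalization, 0.27 with normexp, 0.63 with 16 added and 0.23 for genes well above background on all 4 arrays. With normexp 5 genes were lower in SkBr3/Lap, of which 4 were among the 8 reported and KCNN4 was gained, 2 were higher in both and 1, KCNN4, was opposite in place of KCNK13 and KCNQ1. With 16 added 1 was opposite. Without a filter 13 genes were lower in SkBr3/Lap, 3 were lower in both clones and 3 were opposite. Detection on all 4 arrays, which leaves fewer genes, left 4 higher and 5 lower in SkBr3/Lap, 7 higher in BT474/Lap, 2 higher in both and 1 opposite. For the other settings the cause was not tested. Signals under the lowest one marked on their array, 13.3 to 16.01, are not separated from background. Some brighter signals were not marked either, such as the second KCNH2 probe at 22.1 in BT474. The limits rest on that lowest signal and are not strict bounds.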
